A study of Mus musculus with 15 samples.

Results

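The acute response of mouse bone marrow-derived macrophages (BMDMs) to lipopolysaccharide (LPS) was read from RNA-seq of 3 control samples and 3 samples given LPS for 4 h, 6 of the 15 samples of the series. BMDMs are macrophages grown out of bone marrow progenitors with macrophage colony-stimulating factor (M-CSF). All groups came from wild-type C57BL/6 mice and were kept in M-CSF, which was the only treatment of the control cells. The M-CSF step is given as 3 days in the series description. The study's methods give 4 days for generating BMDMs. The labels give no duration for the control samples, so their time of harvest relative to the treated groups is not known. The remaining 9 samples, 3 each given LPS for 72 h (3 days), RANKL for 4 h or RANKL for 72 h, shared one fit with them. The samples were chosen by their labels and no measured value was used. The study used LPS as an inflammatory stimulus beside RANKL, the cytokine that turns these cells into osteoclasts, and the question here is which transcripts were higher or lower after 4 h of LPS.

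LPS is a cell wall component of Gram-negative bacteria. On macrophages it is handed by CD14 to a receptor complex of TLR4 and MD-2, which signals through the adaptors MyD88 and TRIF. The MyD88 branch leads to NF-κB and AP-1 and to cytokines such as TNF and interleukin 6. The TRIF branch leads to IRF3 and interferon β, which acts back on the cells and induces interferon-stimulated genes. Inhibitors induced in the same hours, among them IκBα, A20 and the SOCS proteins, limit both branches.

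Values are FPKM, that is fragments scaled to exon length and library size, so levels can be set side by side between genes. Fold changes are differences of log2(FPKM + 0.1), a scale on which low genes appear to change less than they did. They are given with a standard error and a Benjamini-Hochberg adjusted p from limma. Tests covered 11743 genes, those averaging 0.1 FPKM or more. The thresholds of a call were an adjusted p under 0.05 with a fold change above 1.5 for higher genes and below 0.66 for lower ones. The median gene of the LPS 4 h samples was lower than that of the control samples by 0.57 on the log2 scale (LPS 4 h minus control -0.57, against 0.08 for LPS 72 h and 0.00 for RANKL 4 h). Each comparison was therefore also made with every sample centred on its median gene, which adds the same 0.57 to every log2 fold change. Below, "rose" and "fell" are used of genes called in that direction on both scales.

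On both scales 990 of the 11743 genes rose (8.43%) and 1529 fell (13.0%). A further 3131 genes were lower only as deposited, which brought the genes lower on that scale to 4660 (39.7%). A further 881 were higher only after centring, which brought the genes higher on that scale to 1871 (15.9%). No gene was called in opposite directions on the scales, and 5212 were called on neither. The rises reached further than the falls. Of the genes that rose, 318 had a log2 fold change of at least 2 and 38 of at least 5, whereas 90 of the genes that fell were down by at least 2 after centring and 305 genes as deposited. The 3 LPS 4 h values lay wholly above the 3 control values for 955 of the 990 genes that rose and wholly below them for all 1529 that fell, against 10.6% and 56.2% of all tested genes.

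**Figure D1:**
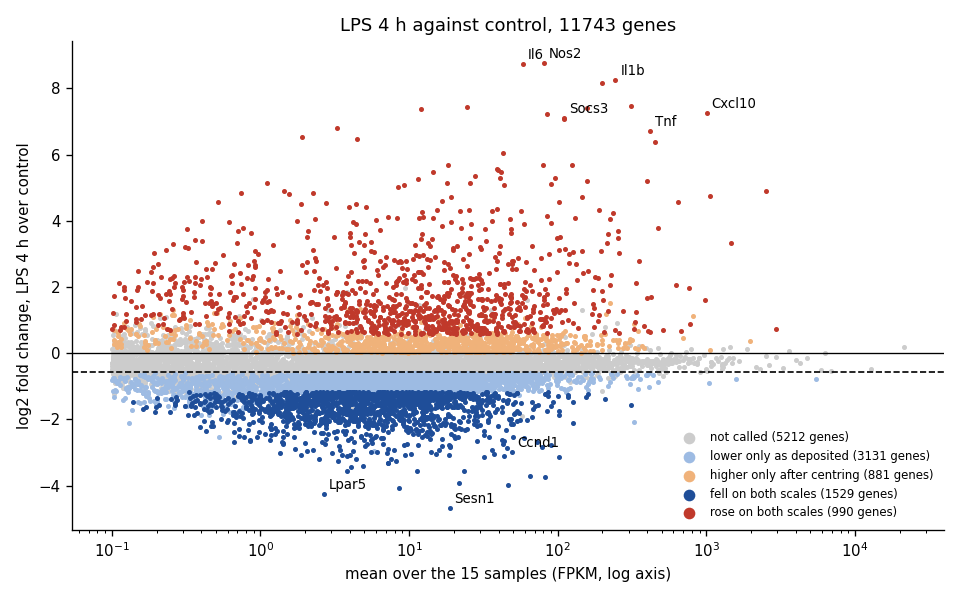
Each point is 1 of 11743 genes, with its mean over the 15 samples in FPKM (log axis) against its log2 fold change in LPS 4 h over control (3 samples each). Colours mark the calls on the deposited and centred scales, and the dashed line at -0.57 is the shift of the median gene. Most uncalled genes (grey) lie near that line and 0, and the 990 genes that rose reach further from 0 than the 1529 that fell.

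The genes that rose took up a large part of the libraries. They held 7.24% to 8.84% of the fragments of a control sample and 28.6% to 29.5% of those of an LPS 4 h sample. The genes that fell held 6.70% to 8.21% and 2.13% to 2.46%. The share on the rising genes moved together with the lower median gene, and FPKM are relative to each library, so a lower total of the other transcripts cannot be told apart from a higher total of the rising ones. The median log2 fold change over 5 equal classes of mean level, from lowest to highest, was -0.44, -0.79, -0.64, -0.53 and -0.32, so genes between 1.09 and 4.47 FPKM were lowest. Over 5 classes of exon length it ranged less, from -0.58 to -0.47.

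Depth was alike, with 18810977 to 20307875 fragments on listed genes per control sample and 19503670 to 20330207 per LPS 4 h sample. Of 10 macrophage markers all were present in both groups, and their summed level was 8194 to 10017 FPKM in control and 6882 to 8317 FPKM in LPS 4 h. Only *Cd14* of these rose (log2 fold change 4.23) and none fell, so the LPS 4 h sum includes a gene that was higher after LPS. Transcripts of other bone marrow cells were also there. The 10 neutrophil and promyelocyte markers summed to 7913 to 24348 FPKM in control and 6667 to 21334 FPKM in LPS 4 h, most of it *S100a8* and *S100a9*, and none of them was called on either scale. The 12 stromal markers summed to 165 to 335 and 167 to 315 FPKM, with none called, but with the replicate number as a block *Lum* (1.10) was called higher on both scales. Sums of the B cell, T and NK cell, erythroid, basophil and mast cell, endothelial and dendritic cell markers stayed at or under 67.6 FPKM in every sample of both groups. Of these lists' members 1 fell, the B cell gene *Cd79b* (-2.17), a call lost without any 1 of 5 of the 6 libraries. In bulk samples fewer cells of a type and less RNA per cell cannot be told apart, and the part of these cells in the results below was not tested.

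The 15 largest rises among genes at 1 FPKM or more were *Nos2*, *Il6*, *Il1b*, *Cxcl1*, *Cxcl2*, *Il12b*, *Il1a*, *Tnfsf15*, *Cxcl10*, *Ptgs2*, *Socs3*, *Il27*, *Il23a*, *Tnf* and *Il19*, in this order of log2 fold change from 8.77 to 6.55. All but *Nos2*, *Ptgs2* and *Socs3* encode secreted cytokines or chemokines or, for *Tnf* and *Tnfsf15*, ligands of the TNF family. Promoter windows of RefSeq on GRCm38.p6, from 250 bases before to 50 after the start, were matched by gene number for 12 of the 15. Both strands were searched for GGANTTNCC (N is any base), a form of the NF-κB motif, GAAANNGAA, a form of the interferon-stimulated response element, and TGANTCA, the AP-1 motif. The NF-κB form was in 4 of the 12, against 3.95% of 32851 windows of all genes. The interferon form was in 2 (*Cxcl10* and *Il19*) against 8.56% of all windows. The AP-1 motif was in 3 (*Il6*, *Il1a* and *Cxcl10*) against 7.81%. Among the 15 largest falls listed below 13 had a window, and the NF-κB form was in 1 of their genes (*Etv5*) and the other 2 motifs in none. The TATA box letters TATAAA were in 3 of the 12 rises and 3 of the 13 falls (13.6% of all windows), and the CREB and ATF motif TGACGTCA was in none (1.79%). A match is a description of the letters, not a bound site. The counts are of genes and the shares are of windows, of which a gene can have several, so the 2 are not alike. *Cxcl1* and *Cxcl2* lie close together on chromosome 5 and hold the same NF-κB letters, so they may not be separate cases. The share over all genes that rose was not compared, since 79.1% of them had a window, under the 80% set for such a check.

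The 250 bases before the start of the 4 largest rises with the NF-κB form are shown because they are the promoters in which the letters occur, each 5′ to 3′ on its own strand, with matches to these 3 motifs in capitals.
*Il6*, chr5:30012864-30013113, plus strand: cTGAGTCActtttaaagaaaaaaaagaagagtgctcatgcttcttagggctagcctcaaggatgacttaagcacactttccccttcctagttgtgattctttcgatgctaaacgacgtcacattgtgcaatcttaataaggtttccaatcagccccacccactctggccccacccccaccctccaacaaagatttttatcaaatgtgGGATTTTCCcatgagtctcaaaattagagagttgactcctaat
*Cxcl1*, chr5:90890995-90891244, plus strand: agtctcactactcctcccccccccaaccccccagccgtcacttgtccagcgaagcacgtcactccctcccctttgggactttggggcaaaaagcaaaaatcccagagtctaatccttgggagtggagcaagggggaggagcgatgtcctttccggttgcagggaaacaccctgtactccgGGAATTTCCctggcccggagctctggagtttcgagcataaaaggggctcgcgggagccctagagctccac
*Cxcl2*, chr5:90903649-90903898, plus strand: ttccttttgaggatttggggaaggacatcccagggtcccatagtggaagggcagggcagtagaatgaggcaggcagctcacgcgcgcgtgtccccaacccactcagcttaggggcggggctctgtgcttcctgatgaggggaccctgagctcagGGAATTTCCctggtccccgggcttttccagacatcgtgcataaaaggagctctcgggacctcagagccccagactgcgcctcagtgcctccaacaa
*Cxcl10*, chr5:92348890-92349139, minus strand: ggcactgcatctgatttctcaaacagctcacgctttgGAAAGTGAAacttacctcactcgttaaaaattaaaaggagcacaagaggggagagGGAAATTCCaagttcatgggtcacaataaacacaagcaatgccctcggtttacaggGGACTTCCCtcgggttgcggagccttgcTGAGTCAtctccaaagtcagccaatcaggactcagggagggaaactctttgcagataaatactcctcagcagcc
The NF-κB form lay 43 to 35 bases before the start of *Il6*, 70 to 62 before that of *Cxcl1* and 96 to 88 before that of *Cxcl2*. In *Cxcl10* it occurred at 158 to 150 and at 102 to 94 bases, with the interferon form upstream at 213 to 205 and the AP-1 motif downstream at 74 to 68, so this window held all 3. In *Il6* the AP-1 motif was at the far end of the window, 249 to 243 bases before the start.

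Cytokines had the highest median of the 23 lists. Of 31 members tested 27 rose and 0 fell, where 8.43% of all genes rose, and their median log2 fold change was 4.00 against -0.52 over all tested genes. With 1 library left out 25 to 26 rose. The members were chosen with earlier results of these data known, so the counts describe the lists and do not test them. For this and every later list the shares over all tested genes are 8.43% that rose and 13.0% that fell. On single scales 39.7% of all tested genes were lower as deposited and 15.9% were higher after centring. *Tnf*, the early product of the MyD88 branch that acts on most cells through its receptors, had 23.5, 15.8 and 16.5 FPKM in control and 2495, 1698 and 1716 FPKM in LPS 4 h. *Il1b* and *Il1a*, the precursors of the fever-inducing interleukin 1, rose together, *Il1b* from 3.99 ± 2.71 to 1103 ± 193 and *Il1a* from 4.21 ± 1.62 to 694 ± 62.4 FPKM (SD, n = 3 each). *Il6*, which drives the acute-phase response, had 0.734, 0.329 and 0.613 FPKM in control and 262, 276 and 279 FPKM in LPS 4 h. Its LPS 4 h values were the closest together of these genes while *Tnf* was highest in replicate 1.

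Subunits of the interleukin 12 family rose as well. *Il12b*, the p40 chain that interleukins 12 and 23 share, had 0.539, 1.07 and 0.319 FPKM in control and 101, 124 and 132 FPKM in LPS 4 h (log2 fold change 7.44, standard error 0.94, adjusted p = 1.94e-05). Its control values varied widely, and its standard error was the largest of the 15 largest rises. The partner chains were *Il12a* (4.51) and *Il23a*. *Il23a* rested on 2 fragments in the 3 control samples together and 1315 in those of LPS 4 h, a depth-adjusted ratio of 653 with an exact 95% interval of 181 to 5402, for counting error only. *Il27* had 6.75, 3.32 and 2.44 FPKM in control and 697, 554 and 377 FPKM in LPS 4 h and its partner *Ebi3* rose by a log2 fold change of 1.88. *Il19*, of the interleukin 10 family, was at 0 in all 3 control samples and 7.18, 10.7 and 10.3 FPKM in LPS 4 h, at least 73.3-fold higher against a floor of 3 fragments per library.

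Growth factors of the myeloid lineage rose from very low levels. *Csf3*, the neutrophil growth factor G-CSF, had 0.0340, 0.0171 and 0.0730 FPKM in control and 19.4, 10.3 and 9.28 FPKM in LPS 4 h (log2 fold change 6.47, standard error 0.40, adjusted p = 3.9e-08). Its log2 fold change was 3.68 with a pseudocount of 1 and 8.10 by limma voom on the recovered fragments. *Csf2* (GM-CSF) had a log2 fold change of 4.83 and reached 9.79 FPKM, and *Csf1*, which encodes the M-CSF that the cells were also given, 1.64 and 31.4 FPKM. *Lif* and *Inhba* rose by 4.00 and 1.80.

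Anti-inflammatory cytokines rose in the same samples. *Il10*, which dampens cytokine production by macrophages, had 5.70, 4.74 and 2.72 FPKM in control and 226, 184 and 169 FPKM in LPS 4 h (log2 fold change 5.48, standard error 0.33, adjusted p = 2.6e-08). *Il1rn*, the antagonist of the interleukin 1 receptor, rose from 70.0 ± 38.7 to 785 ± 174 FPKM (SD, n = 3 each). In both genes the groups lay far apart. The 4 cytokines that did not rise were *Il16* (-0.85, called only as deposited), *Tnfsf14* (-0.81), *Tgfb1* (-0.26) and *Il18* (0.51), of which *Tgfb1* stood at 136 FPKM in control. *Ifnb1*, the interferon β of the TRIF branch, had 3.87, 1.89 and 0.649 FPKM in control and 50.5, 21.2 and 12.5 FPKM in LPS 4 h (log2 fold change 3.72, standard error 0.73, adjusted p = 0.000638). Control and LPS 4 h were both highest in replicate 1 and lowest in replicate 3 and did not overlap.

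Of 23 chemokines tested 17 rose and 0 fell, with a median log2 fold change of 1.95. Leaving out 1 library gave 14 to 15 rises. The neutrophil attractants *Cxcl1*, *Cxcl2* and *Cxcl3* rose by 8.16, 7.48 and 5.20. *Cxcl1* had 4.58, 2.90 and 2.25 FPKM in control and 1082, 661 and 1077 FPKM in LPS 4 h, with replicate 2 the lowest of the LPS 4 h samples. *Cxcl10*, an interferon-inducible attractant of T cells, had 114, 24.1 and 11.8 FPKM in control and 5227, 4885 and 4559 FPKM in LPS 4 h, the highest level of the listed chemokines after LPS. Its control samples differed widely, whereas the LPS 4 h samples lay close together. The attractants of monocytes and T cells *Ccl3*, *Ccl4* and *Ccl5* reached 4718, 2956 and 3337 FPKM from 179.8, 129 and 417 FPKM. *Ccl2* and *Ccl7*, ligands of the monocyte receptor CCR2, rose less (1.59 and 1.66) from control levels that were already 808 and 354 FPKM. The members not called on both scales were *Ppbp* (-0.77), *Ccl6* (-0.57), *Pf4* (-0.09), *Cxcl14* (-0.02), *Ccl8* (0.39) and *Ccl12* (1.29).

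**Figure D2:**
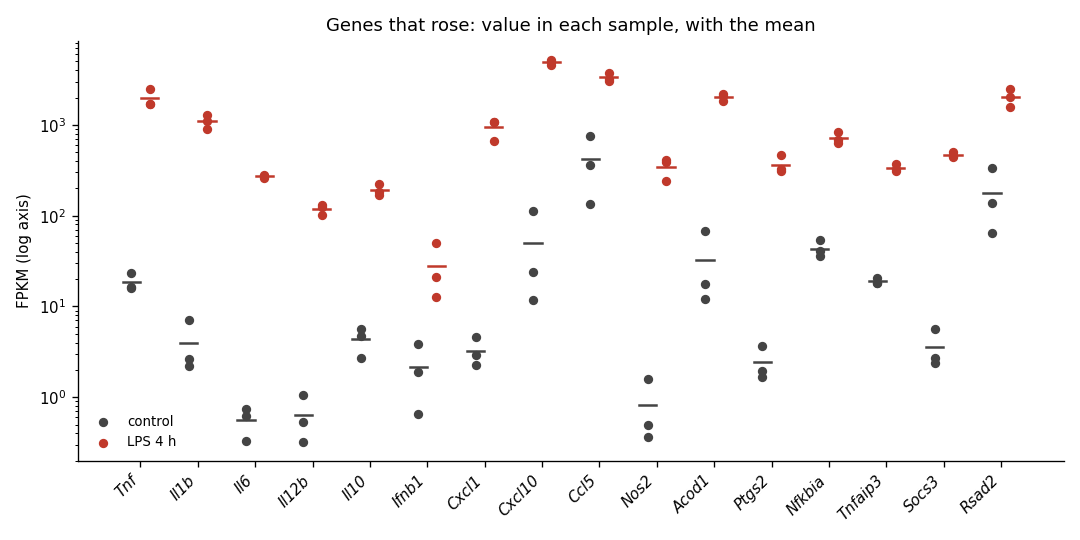
FPKM (log axis) of 16 genes that rose in each of 3 control and 3 LPS 4 h samples (points) with the group mean (bar). No gene's groups overlap, and the control values of *Cxcl10*, *Rsad2* and *Ccl5* are spread more widely than their LPS 4 h values.

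The receptors for these ligands went both ways. Of 16 chemokine and attractant receptors 3 rose and 3 fell, or 4 with the replicate block, which added *Cxcr2* (-2.96). The receptors that rose were *Fpr1* (3.48) and *Fpr2* (2.52), which sense formylated bacterial peptides, and *Ccrl2* (5.68), a chemerin-binding receptor that does not signal. The receptors that fell were *Ccr2*, *Cx3cr1* and *Cxcr4*. *Ccr2* had 19.7, 23.6 and 35.7 FPKM in control and 3.65, 6.44 and 4.94 FPKM in LPS 4 h (log2 fold change -2.36, centred -1.80, adjusted p = 0.00175), and the call was lost without control replicate 3 or LPS 4 h replicate 1. *Cx3cr1*, the fractalkine receptor, had 1.71, 2.40 and 2.05 FPKM in control and 0.351, 0.546 and 0.603 FPKM in LPS 4 h (log2 fold change -1.86, centred -1.29, adjusted p = 6.92e-05), and its log2 fold change was -1.02 with a pseudocount of 1. *Cxcr4*, the receptor that holds leukocytes in the marrow, fell from 47.5 ± 16.6 to 7.54 ± 2.61 FPKM (SD, n = 3 each). The receptor gene for complement fragment C5a, *C5ar1*, had a log2 fold change of -0.02.

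The LPS receptor itself changed in opposite directions by part. Of 30 genes of LPS recognition and signalling 11 rose and 2 fell. *Cd14*, the coreceptor that hands on LPS, had 33.4, 40.5 and 43.7 FPKM in control and 978, 585 and 689 FPKM in LPS 4 h (log2 fold change 4.23, standard error 0.19, adjusted p = 2.23e-09). *Tlr4* had 18.0, 22.9 and 19.8 FPKM in control and 8.26, 8.28 and 10.2 FPKM in LPS 4 h (log2 fold change -1.18, centred -0.61, adjusted p = 1.52e-05), with every LPS 4 h value below every control value. The fall of *Tlr4* held as deposited in every leave-out but was lost on the centred scale without control replicate 2, LPS 4 h replicate 1 or LPS 4 h replicate 2. *Ly96*, which encodes MD-2, was not called as deposited (0.33) and was called higher after centring (0.90). *Tlr2*, the receptor for bacterial lipoproteins, had 20.5, 13.9 and 14.4 FPKM in control and 402, 371 and 369 FPKM in LPS 4 h (log2 fold change 4.56, standard error 0.24, adjusted p = 1.05e-08). The adaptors differed from each other. *Myd88* was up by 1.34, whereas *Ticam1* (TRIF) was at -0.66, near the shift of the median gene (-0.57), and was called lower only as deposited. Downstream, the kinase genes *Ripk2* (3.12), *Map3k8* (2.44), *Irak2* (2.20) and *Ikbke* (1.69) rose. *Irak4* and *Irak1*, the first kinases of the pathway, were lower only as deposited (-1.07 and -0.93), and *Tab1* fell (-1.59).

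NF-κB subunits and inhibitors rose as a whole list, 11 of 11, with log2 fold changes from 1.0 to 5.30. The precursor subunits *Nfkb1* and *Nfkb2* rose by 2.78 and 3.89 and *Relb* and *Rel* by 3.16 and 2.84, while *Rela* rose least among the subunits (1.37). *Nfkbia*, the IκBα that holds NF-κB in the cytoplasm, had 54.0, 35.6 and 40.6 FPKM in control and 837, 675 and 635 FPKM in LPS 4 h (log2 fold change 4.05, standard error 0.21, adjusted p = 1.01e-08). *Nfkbiz*, a nuclear cofactor for secondary response genes, rose most (5.30, from 4.32 to 173 FPKM).

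Feedback inhibitors followed, with 16 of 26 tested members up and 2 down. *Tnfaip3*, which encodes the ubiquitin-editing enzyme A20, had 20.5, 18.2 and 18.0 FPKM in control and 311, 369 and 323 FPKM in LPS 4 h (log2 fold change 4.14, standard error 0.17, adjusted p = 1.49e-09). *Socs3*, which restrains signals of the interleukin 6 receptor, had 5.60, 2.72 and 2.38 FPKM in control and 503, 457 and 442 FPKM in LPS 4 h (log2 fold change 7.09, standard error 0.31, adjusted p = 2e-09), and *Socs1*, which restrains interferon signals, 27.3, 8.51 and 7.39 FPKM in control and 302, 245 and 181 FPKM in LPS 4 h (log2 fold change 4.30, standard error 0.59, adjusted p = 4.22e-05). The control values of *Socs1* were highest in replicate 1, as were its LPS 4 h values. The A20-binding proteins *Tnip1* and *Tnip3* rose by 2.88 and 5.54, and the decoy kinase *Irak3* by 2.24. Phosphatases of MAP kinases differed by member, with *Dusp1*, *Dusp2*, *Dusp5* and *Dusp16* up (3.24, 5.14, 1.77 and 3.59) and *Dusp4* and *Dusp10* at 0.20 and -0.01. *Rgs2*, a regulator of G protein signals, fell (-2.57), as did *Sigirr*, an inhibitory receptor of the interleukin 1 family (-1.84, at 1.20 FPKM in control), whose call was lost without any 1 of 4 libraries.

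Immediate-early and bZIP factors were split at 4 h. Of 32 members 19 rose and 3 fell. *Maff* (4.11), *Egr1* (3.36), *Junb* (3.09) and *Batf2* (2.91) rose most. *Jun* and *Fos*, the classical AP-1 pair, fell (-1.54 and -1.48). *Jun* had 50.7, 53.8 and 67.3 FPKM in control and 22.0, 16.4 and 20.6 FPKM in LPS 4 h and *Fos* 27.3, 33.6 and 36.0 FPKM in control and 8.83, 12.2 and 14.1 FPKM in LPS 4 h, and the call for *Fos* was lost without control replicate 2 or 3 or LPS 4 h replicate 1. In the C/EBP family *Cebpb* and *Cebpd*, which act in the inflammatory response, rose (2.07 and 1.72). *Cebpa*, a factor of myeloid differentiation, fell from 72.8, 82.5 and 75.4 FPKM in control to 8.84, 9.28 and 14.4 FPKM in LPS 4 h (log2 fold change -2.85, centred -2.28, adjusted p = 2.38e-06). *Myc* was not called (-0.54).

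Interferon-stimulated genes were read in the control samples already. Of 45 tested 26 rose and 0 fell, and 35 were higher after centring, with a median log2 fold change of 1.20. The number that rose was 21 to 30 when 1 library was left out. Their summed level was 3424 to 8611 FPKM in the control samples, a wide range, and 15753 to 16724 FPKM in LPS 4 h. *Rsad2*, which encodes the antiviral enzyme viperin, had 333, 139 and 64.5 FPKM in control and 1560.3, 2013 and 2457 FPKM in LPS 4 h (log2 fold change 3.78, standard error 0.69, adjusted p = 0.000374). *Ifit1*, which binds viral RNA, had 189.9, 85.3 and 52.1 FPKM in control and 991, 1111 and 1063 FPKM in LPS 4 h (log2 fold change 3.48, standard error 0.65, adjusted p = 0.000465). In both genes control replicate 1 was the highest control and replicate 3 the lowest, and the standard errors were accordingly large. The guanylate-binding protein gene *Gbp5* rose most (5.70, from 15.3 to 580.4 FPKM). *Isg15*, a ubiquitin-like modifier, rose by 2.06 and *Ifit2* by 2.35, and both calls were lost without control replicate 3. *Bst2*, *Oas3* and *Oas1a* had log2 fold changes of -0.07, -0.04 and 0.09 and stood at 1218, 158 and 154 FPKM in control. Near-identical family members such as *Ifit3* and *Ifit3b* may share reads, so their values are uncertain.

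Of 22 IRF and STAT factors and their receptors 4 rose on both scales, *Irf1* (3.00), *Jak2* (2.77), *Stat5a* (2.11) and *Stat3* (1.33), none fell, and 14 were higher after centring. *Irf1* had 57.4, 35.1 and 25.1 FPKM in control and 359, 312 and 232 FPKM in LPS 4 h. *Irf7*, the interferon-inducible master factor of type I interferon, was already at 1379.6, 1068 and 617 FPKM in control and had 1295, 1033 and 869.9 FPKM in LPS 4 h, and the groups overlapped (0.12, adjusted p = 0.748). *Irf8*, a lineage factor of macrophages, overlapped too (-0.06). *Irf3* and *Ifngr1*, a chain of the interferon γ receptor, were lower only as deposited (-0.86 and -1.02).

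Enzymes of inflammatory mediators held the largest single change. Of 24 members 14 rose and 0 fell, with 1 fall when the replicate number was used as a block. *Nos2*, the inducible nitric oxide synthase, had 1.58, 0.490 and 0.367 FPKM in control and 242, 393 and 407 FPKM in LPS 4 h, the largest log2 fold change of the 990 genes. *Gch1*, which makes the cofactor of that enzyme, rose by 1.82, and the arginine transporter gene *Slc7a2* by 5.48. *Acod1*, which makes itaconate from a citrate cycle intermediate, had 67.9, 17.6 and 12.01 FPKM in control and 1856, 2080.1 and 2178 FPKM in LPS 4 h (log2 fold change 6.38, standard error 0.51, adjusted p = 3.35e-07). *Ptgs2*, the inducible cyclooxygenase, had 3.71, 1.97 and 1.66 FPKM in control and 308, 328 and 462 FPKM in LPS 4 h (log2 fold change 7.23, standard error 0.55, adjusted p = 2.62e-07), and *Ptges*, the next enzyme to prostaglandin E2, rose by 5.14. The constitutive cyclooxygenase *Ptgs1* was lower only as deposited (-1.60). *Ch25h*, which makes 25-hydroxycholesterol, rose by 5.69. Among secreted acute-phase proteins *Saa3* rose from 97.8 to 2643 FPKM and *Hp* from 131 to 609.5 FPKM. *Sod2*, the mitochondrial superoxide dismutase, and *Slc7a11*, the cystine transporter, rose by 3.51 and 4.73. *Arg1* had a log2 fold change of -0.59 and was not called, whereas *Arg2* rose (2.77).

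**Figure D3:**
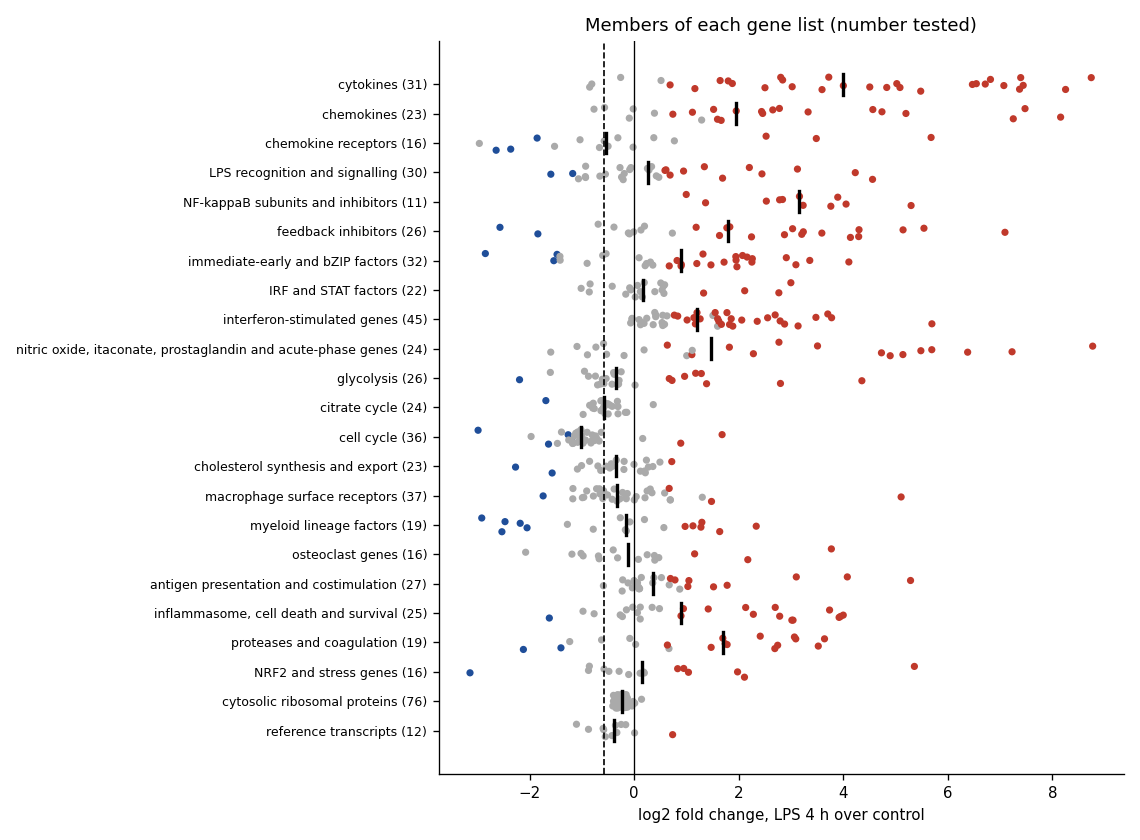
Log2 fold change in LPS 4 h over control of every tested member of 23 gene lists (points), with each list's median (black bar), 0 (solid line) and the shift of the median gene at -0.57 (dashed line). Red members rose and blue members fell on both scales. All 11 NF-κB members are red, whereas the 76 ribosomal protein genes are grey and lie between -0.41 and 0.14.

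Genes of glycolysis did not move as a group. Of 26 members 8 rose and 1 fell, or 2 with the replicate block, while 7 were lower as deposited, where 39.7% of all genes were. The rises were in glucose and lactate transporters, regulators and single isoforms. *Slc2a6* (4.36), *Pfkfb3* (2.80), which makes an activator of phosphofructokinase, *Eno2* (1.38) and *Hif1a* (1.28) rose most. *Hk2*, a hexokinase, had 23.1, 20.9 and 20.7 FPKM in control and 48.9, 57.3 and 41.4 FPKM in LPS 4 h (log2 fold change 1.18, standard error 0.15, adjusted p = 1.83e-05). *Slc2a1*, the main glucose transporter, had 24.9, 17.3 and 19.98 FPKM in control and 37.6, 27.1 and 34.2 FPKM in LPS 4 h (log2 fold change 0.67, standard error 0.19, adjusted p = 0.00681), a call lost without control replicate 2 or LPS 4 h replicate 1. The member that fell was *Pfkfb4* (-2.19). Abundant enzymes such as *Pkm*, *Ldha* and *Aldoa* had log2 fold changes of -0.54, -0.30 and -0.29 and were not called. Of 24 citrate cycle genes 0 rose, 1 fell and 10 were lower as deposited, where 13.0% of all genes fell and 39.7% were lower as deposited. The member that fell was *Idh1*, the cytosolic isocitrate dehydrogenase, which is not an enzyme of the mitochondrial cycle itself. *Idh1* had 77.7, 94.6 and 97.7 FPKM in control and 23.4, 34.7 and 26.1 FPKM in LPS 4 h (log2 fold change -1.69, centred -1.12, adjusted p = 9.51e-07). Its groups did not overlap, and the median of the list was -0.58, near that of all genes.

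The cell cycle list was lower as deposited in 23 of 36 members, where 39.7% of all genes were. On both scales 4 of the 36 fell, a share no higher than the 13.0% of all genes. The median log2 fold change of the list was -1.02 as deposited and -0.45 after centring. *Ccnd1*, the D-type cyclin induced by M-CSF, had 62.2, 84.2 and 59.3 FPKM in control and 8.34, 12.1 and 5.97 FPKM in LPS 4 h (log2 fold change -2.99, centred -2.42, adjusted p = 0.00055), with the groups far apart. The other falls were in *Cdc6*, *Mcm2* and *Cdk2* (-1.64, -1.26 and -1.18), which serve the start of DNA replication, and each was lost without any 1 of 3 libraries. *Ccnd2* and *Ccne1* rose (1.68 and 0.89), the latter call being lost without any 1 of 4 libraries. *Mki67*, a marker of dividing cells, had 14.6, 17.1 and 31.1 FPKM in control and 21.8, 24.3 and 20.6 FPKM in LPS 4 h and was not called (0.16).

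The largest falls were of smaller size than the largest rises. Among the genes reported here they were, in order, *Sesn1*, *Lpar5*, *1810011H11Rik*, *Cd300lb*, *Arl11*, *Tmem86a*, *Lrrc14b*, *Rab3il1*, *Etv5*, *Snx24*, *Cracr2b*, *Gpr157*, *Rnf144b*, *Eepd1* and *Fam78a*, with log2 fold changes from -4.67 to -3.25 as deposited and from -4.10 to -2.69 after centring. *Sesn1*, a stress-induced inhibitor of mTORC1 signals, had 17.7, 30.8 and 22.6 FPKM in control and 1.08, 0.823 and 0.593 FPKM in LPS 4 h (log2 fold change -4.67, standard error 0.36, adjusted p = 2.41e-07). *Lpar5*, a receptor for lysophosphatidic acid, had 2.71, 3.95 and 3.83 FPKM in control and 0.0730, 0.0960 and 0.0882 FPKM in LPS 4 h (log2 fold change -4.26, standard error 0.19, adjusted p = 2.94e-09), so its LPS 4 h values were at the pseudocount. *Cd300lb*, an activating receptor of myeloid cells, had 63.4, 76.0 and 102 FPKM in control and 4.94, 3.69 and 6.30 FPKM in LPS 4 h. *Arl11*, a small GTPase of the ARF family, had 33.7, 30.2 and 32.9 FPKM in control and 2.21, 1.95 and 1.97 FPKM in LPS 4 h, with the narrowest groups of these genes. *Tmem86a*, an enzyme of plasmalogen breakdown, was lowest in replicate 3 of both groups, with 153, 129 and 62.9 FPKM in control and 11.5, 9.99 and 4.34 FPKM in LPS 4 h. For none of these 15 falls or the 15 largest rises was the call lost on either scale when 1 library was left out.

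**Figure D4:**
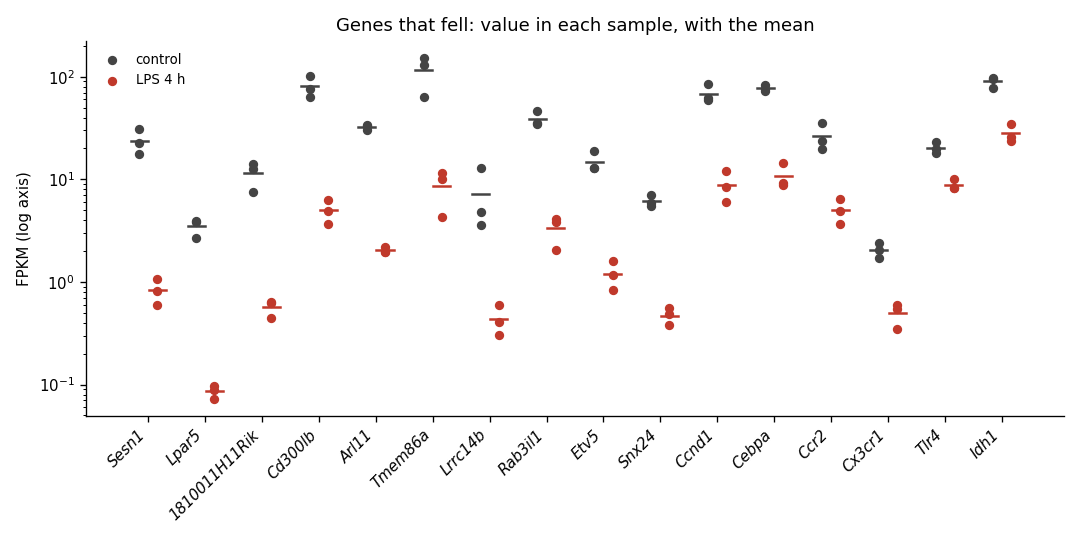
FPKM (log axis) of 16 genes that fell in each of 3 control and 3 LPS 4 h samples (points) with the group mean (bar). No gene's groups overlap, and *Tlr4* and *Idh1* are closer to their controls than the 10 largest falls at the left.

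Lineage factors moved both ways. Of 19 myeloid lineage factors 6 rose and 5 fell. *Tfeb* (-2.92), a factor of lysosome genes, *Rxra* (-2.53) and *Pparg* (-2.18), nuclear receptors of lipid metabolism, *Bhlhe41* (-2.47) and *Mef2c* (-2.05) fell. *Mitf* and *Tfec*, in the same family as *Tfeb*, rose (0.97 and 1.28), as did *Ikzf1* (1.29), *Bcl6* (1.12), *Id3* (1.64) and *Prdm1* (2.33). *Spi1*, which encodes PU.1, was not called as deposited (0.57) and was higher after centring (1.13).

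Of 37 macrophage surface receptors tested 3 rose and 1 fell, where 8.43% of all genes rose and 13.0% fell. The counts were 5 and 2 with the replicate block, and leaving out 1 library gave 2 to 6 rises. *Clec4e* (Mincle), a receptor for mycobacterial glycolipid, rose by 5.11. The inhibitory Fc receptor *Fcgr2b* rose by 1.48 and *Clec4d*, partner of Mincle, by 0.67, which was lost without either of 2 libraries. The scavenger receptor *Stab1* fell (-1.74), which was lost without control replicate 2 or LPS 4 h replicate 1. *Csf1r*, the receptor for M-CSF, had 189.8, 217 and 188 FPKM in control and 113, 152 and 138 FPKM in LPS 4 h, with no overlap, but its log2 fold change of -0.57 was inside the fold threshold and -0.00 after centring. *Mrc1*, the mannose receptor, had 80.7, 176 and 146 FPKM in control and 46.8, 114 and 86.5 FPKM in LPS 4 h and was not called (-0.72, adjusted p = 0.266). It was lower in LPS 4 h in each of the 3 pairs of samples with the same number, and the adjusted p with the replicate block was 0.137. Among genes of antigen presentation and costimulation 9 of 27 rose and 0 fell, and 7 to 12 rose when 1 library was left out. The costimulatory *Cd40* (5.29), *Cd80* (1.78) and *Cd86* (1.52), the adhesion molecule *Icam1* (4.08) and the inhibitory ligand *Cd274* (3.10) rose, whereas the class II genes *H2-Aa*, *H2-Ab1* and *H2-Eb1* had log2 fold changes of -0.12, 0.14 and -0.23.

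Genes of the inflammasome, cell death and survival rose in 13 of 25 cases and fell in 1. *Nlrp3*, the sensor of the inflammasome, rose from 12.8 to 173 FPKM (3.74), *Casp4*, the intracellular LPS sensor, by 2.70, and *Casp1* by 0.94. *Pycard*, the adaptor of the inflammasome, was lower only as deposited (-0.98). The survival genes *Birc3* and *Cflar* rose (3.04 and 2.78), and so did *Bcl2a1a*, *Bcl2a1b* and *Bcl2a1d*, near-identical copies whose shares are uncertain. *Bcl2l1*, which encodes BCL-XL, fell (-1.62). Of 19 proteases and coagulation genes 12 rose and 2 fell, with *Serpinb2* (3.64), tissue factor *F3* (3.09) and *Mmp14* (3.07) up and the urokinase gene *Plau* down (-2.12). The second fall, *Mmp19* (-1.40), was lost without control replicate 3, and 9 to 11 members of this list rose when 1 library was left out.

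Of 23 genes of cholesterol synthesis and export 1 rose and 2 fell, shares no higher than the 8.43% and 13.0% of all genes. The exporter *Abcg1* fell from 24.4 ± 3.40 to 4.96 ± 0.236 FPKM (SD, n = 3 each) and the synthetic enzyme *Dhcr7* by a log2 fold change of -1.57. The exporter *Abca1* was not called as deposited (0.27) and was higher after centring (0.84). *Insig1*, which holds back sterol synthesis, rose (0.72). Of 16 NRF2 and stress genes 6 rose and 1 fell. The metallothionein *Mt2* (5.36) and the autophagy receptor *Sqstm1* (1.98) rose, and the iron exporter *Slc40a1* fell from 162, 258 and 203 to 16.3, 29.5 and 25.3 FPKM (log2 fold change -3.14, centred -2.58, adjusted p = 3.46e-07). Of 16 osteoclast genes 3 rose (*Acp5*, *Car2* and *Src*, by 1.16, 2.17 and 3.77, with *Acp5* lost without any 1 of 4 libraries) and 0 fell, or 1 with the replicate block. *Nfatc1*, the master factor of osteoclasts, had 6.24, 7.67 and 9.31 FPKM in control and 3.49, 3.86 and 2.64 FPKM in LPS 4 h and was lower only as deposited (log2 fold change -1.19, centred -0.62, adjusted p = 0.00148). *Tnfrsf11a*, which encodes the RANKL receptor, was not called (-0.32).

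None of 76 cytosolic ribosomal protein genes was called as deposited, and 1 (*Rpl24*) was higher after centring. Their median was -0.23 as deposited and 0.34 after centring, above that of all genes on both scales. Of 12 transcripts often used as references 1 rose, *Actb*, with 2833, 2922 and 2774 FPKM in control and 4479, 5050.4 and 4683 FPKM in LPS 4 h (log2 fold change 0.74, standard error 0.21, adjusted p = 0.00936). *Gusb* and *Tfrc* were lower only as deposited (-1.10 and -0.87), *B2m* had 0.01 and *Ppia* -0.33.

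Responses of the 40 genes fixed for this purpose were set beside those after 72 h of LPS and 4 h of RANKL, which share the control samples. LPS 4 h and LPS 72 h were compared directly in the same fit, with p adjusted over all genes tested. On both scales 24 of the 40 were higher in LPS 4 h than in LPS 72 h and 1 was lower. These counts describe the 40 genes alone, of which 24 rose and 5 fell in LPS 4 h against control. No share over all tested genes is given for this comparison. *Tnf* had 58.1 ± 18.8 FPKM in LPS 72 h (SD, n = 3) after 1969.7 ± 455 FPKM in LPS 4 h (SD, n = 3), a log2 difference of 5.11 between the times (adjusted p = 6.77e-09). *Cxcl10* had 4890.2 ± 334 FPKM in LPS 4 h and 9.49 ± 6.93 FPKM in LPS 72 h (SD, n = 3 each), the largest difference of the 40 (9.23, adjusted p = 6.4e-07). *Il10* was at 4.25 ± 0.369 FPKM at 72 h (SD, n = 3), close to its control level of 4.39 ± 1.52 FPKM (SD, n = 3). *Ifnb1* was at 0.0203 ± 0.0352 FPKM at 72 h (SD, n = 3). *Ccl5* differed between the times by 0.13 (adjusted p = 0.856). *Csf3* differed by 0.62 as deposited (adjusted p = 0.192) and by 1.26 after centring (adjusted p = 0.0114), so it was called higher in LPS 4 h on the centred scale alone. *Mki67* had 22.2 ± 1.93 FPKM in LPS 4 h and 2.67 ± 1.71 FPKM in LPS 72 h (SD, n = 3 each, difference 3.19, adjusted p = 4.85e-06). In LPS 72 h against control 33 of 36 cell cycle genes were lower as deposited, where 1690 of all 11743 genes were. So were all 10 neutrophil and promyelocyte markers (median log2 fold change -6.93) and 5 of 6 B cell markers, whereas of 10 macrophage markers 2 were higher and 0 lower. The part of cell make-up in these differences was not tested. The gene that was lower in LPS 4 h was *Abca1*, by -2.11 (adjusted p = 4.35e-06).

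RANKL signals through TRAF6 and NF-κB as well, and its 4 h samples were the stimulus at a matched time. In RANKL 4 h against control only 13 of the 11743 tested genes were called higher and 1 lower as deposited. On both scales 25 of the 40 genes were higher in LPS 4 h than in RANKL 4 h and 3 were lower. No share over all tested genes is given for this comparison. The difference was largest for *Nos2* (8.79, adjusted p = 2.29e-08, beside 8.77 for LPS 4 h against control), which had 0.721 ± 0.403 FPKM in RANKL 4 h (SD, n = 3). *Nfkbia* and *Tnfaip3* differed by 3.41 and 3.55 (adjusted p = 4.15e-08 and 5.89e-09). The 3 genes that were lower were *Cx3cr1* (-3.05), *Ccnd1* (-2.75) and *Idh1* (-1.56), with *Cx3cr1* at -1.95 when the pseudocount was 1. *Cx3cr1* had 4.86 ± 1.07 FPKM in RANKL 4 h (SD, n = 3). *Irf7* and *Irf8* differed between LPS 4 h and RANKL 4 h by 0.21 and 0.06 (adjusted p = 0.551 and 0.79). After centring the differences were 0.78 and 0.63 (adjusted p = 0.0798 and 0.0131), so *Irf8* was called higher in LPS 4 h on that scale alone.

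**Figure D5:**
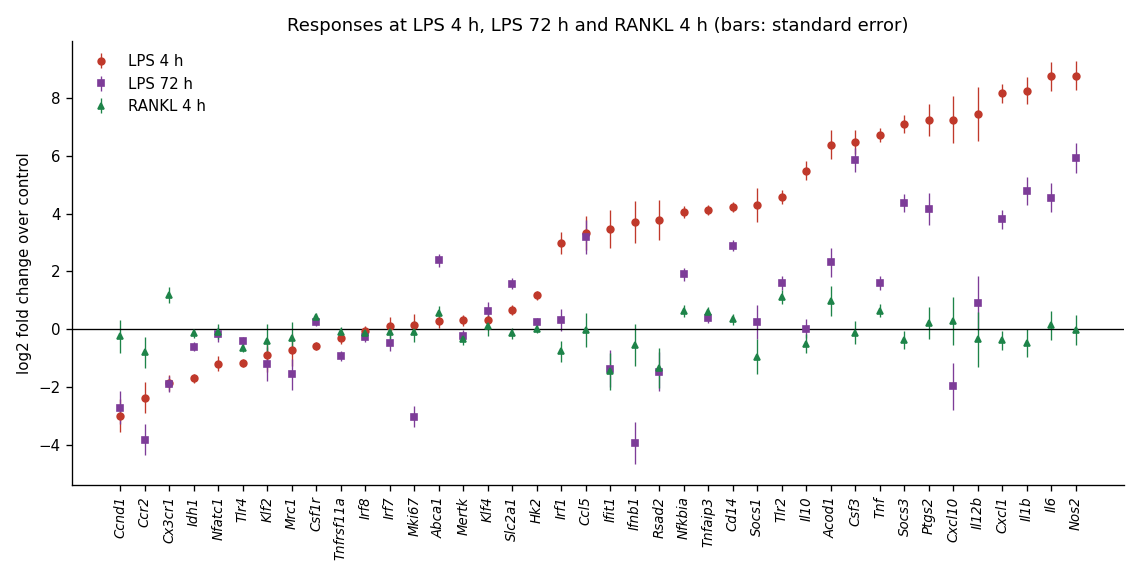
Log2 fold change over control of the 40 fixed genes in LPS 4 h (circles), LPS 72 h (squares) and RANKL 4 h (triangles), with standard errors as bars and genes ordered by LPS 4 h. The RANKL 4 h points stay between -1.46 and 1.19, *Ccl5* and *Csf3* have LPS 72 h points close to LPS 4 h, and *Ifnb1* is among the genes on opposite sides of 0 at the 2 LPS times.

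Tests of single genes without a model have little reach here. The smallest two-sided p of an exact permutation test of 3 samples against 3 is 0.1, and 32 of the 40 fixed genes had it. On the deposited scale the calls of 38 of these 40 genes were unchanged under the 15 alternatives other than centring, the leave-outs included. *Slc2a1* lost its call without control replicate 2 or LPS 4 h replicate 1, and *Csf1r* was called lower without control replicate 3 or LPS 4 h replicate 2. The labels do not say whether the samples are separate cultures or animals, so p-values measure the spread between these samples, which may be technical. Libraries of a group differed by more than sampling noise, with a median chi-square over genes of 8.24 to 25.3 times that of repeat sampling.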

How the data were processed

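RNA-seq libraries of BMDMs were prepared by the authors, per the labels, from total RNA with a SMARTer mRNA kit. The authors deposited a table of FPKM for each gene in each sample, attributed by the methods to StringTie and Ballgown. The submitters' processing notes name StringTie and the builds GRCm38.p4 and mm10, and the aligner is not given in the sources used here. The table held 20089 complete genes and ended at *Tti2* in alphabetical order, so later genes were not analysed here. Every column was matched to a sample by its label.

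From the deposited values, the fragments behind each FPKM were recovered (100% of values within 0.01 of a whole fragment for 14485 genes). log2(FPKM + 0.1) of 11743 genes averaging 0.1 FPKM or more was tested by limma (version 3.58.1, R version 4.3.3) with eBayes and its trend option, in 1 fit of the 5 groups. FPKM are not counts, so a count model was only an alternative (limma voom on the recovered fragments). The study used unadjusted p with the same fold limits. Tested on simulated data, the fit for LPS 4 h against control called 54 of 100 genes changed by 1 on the log2 scale. It called 83 of 100 genes changed by 2 and 5 of 11543 unchanged genes. The fit was not tested with a shift of the median gene or with as many lower genes as in the LPS 4 h samples. The alternatives were other pseudocounts, filters, scalings, groups in the fit, the trend, thresholds, the replicate block and leaving out each sample. The blocked and leave-out counts on both scales together were added after seeing the data.

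Samples with the same replicate number deviated together from their group means (correlation 0.62, 0.62 and 0.44 across 9486 genes, and -0.41 to -0.10 between different numbers). The replicate number was therefore used as a block in an alternative fit. The main fit and the permutation test did not use this pairing. The pairing comes from the numbers in the labels, which do not say whether an animal is shared. Named genes were the 40 fixed genes, the 15 largest rises and falls called on both scales without overlap at 1 FPKM or more, and members of 23 gene lists. A few genes are not reported here and were left out of all 3 kinds. Members outside that rule (not called, or past the first 4 in a direction) were named after their values were seen. Members and lists were chosen with earlier results of these data known. Promoters and gene numbers are from RefSeq on GRCm38.p6. Python 3.11.15 with scipy 1.17.1 was used outside R. Recovered counts give counting error only, since fragments are not independent molecules.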

Additional observations from a re-analysis of the deposited data

Results flagged for a closer look

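For 25 of the 40 fixed genes the level differed between LPS 4 h and LPS 72 h by limma's test of the difference on both scales (adjusted over all genes tested). The share of all tested genes that differed is not given, so the count describes these 40 alone. Time in culture and cell make-up cannot be told apart from the response to LPS in these differences. All values are log2 differences, LPS 4 h minus LPS 72 h, over 3 samples each. Among cytokine genes the difference was 5.11 for *Tnf*, 3.47 for *Il1b*, 4.19 for *Il6*, 6.54 for *Il12b*, 5.47 for *Il10* and 7.67 for *Ifnb1*, the last being 4.61 with a pseudocount of 1. It was 4.36 for the chemokine gene *Cxcl1* and 9.23 for *Cxcl10*. Genes of mediator enzymes differed by 2.86 for *Nos2*, 4.06 for *Acod1* and 3.07 for *Ptgs2*. The inhibitors differed by 2.16 for *Nfkbia*, 3.76 for *Tnfaip3*, 4.04 for *Socs1* and 2.73 for *Socs3*. The interferon-related genes differed by 2.68 for *Irf1*, 4.83 for *Ifit1* and 5.24 for *Rsad2*. Receptor genes differed by 1.34 for *Cd14*, 2.97 for *Tlr2*, 1.45 for *Ccr2* and 0.60 for *Tnfrsf11a*. With a pseudocount of 1 the calls for *Ccr2* (1.06, adjusted p = 0.0538) and *Tnfrsf11a* (0.55, inside the fold limit) were lost. *Hk2* differed by 0.92 and *Mki67* by 3.19. *Abca1* was lower at 4 h than at 72 h, by -2.11. Groups of 3 samples were too small to be searched for single outlying samples.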

How the results depend on the processing

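Counts of called genes depended on the scaling. Centring on the median gene moved the rises from 990 to 1871 and the falls from 4660 to 1529, and a fold change of at least 2 left 709 rises and 2548 falls. The other alternatives kept both counts within 1.5 times, from 846 to 1037 rises and from 3618 to 4818 falls. The replicate block gave 1037 rises and 4790 falls as deposited and 1588 falls on both scales, and it changed the call of none of the 40 fixed genes against control. Among list members it added 12 calls on both scales and removed 0, and between LPS 4 h and LPS 72 h it added *Irf7* as deposited (0.59, adjusted p = 0.0236). Leaving out 1 library gave 903 to 990 rises and 4244 to 4728 falls as deposited, and 1297 to 1458 falls on both scales. Uncalled genes changed sign in some settings. Centred, *Irf8* was at 0.50 and *Tnfrsf11a* at 0.25 against control. Centred, LPS 4 h minus LPS 72 h was 0.34 for *Klf4* and 0.38 for *Ccnd1*, and LPS 4 h minus RANKL 4 h was 0.02 for *Tlr4*, 0.14 for *Mrc1*, 0.07 for *Klf2*, 0.28 for *Abca1* and 0.35 for *Tnfrsf11a*. Leaving out 1 library moved *Irf7* from -0.21 to 0.37, *Irf8* from -0.21 to 0.13, *Klf4* from -0.06 to 0.68 and *Mki67* from -0.06 to 0.49. The causes were not tested. Genes with a few fragments in control, such as *Il23a*, have folds that counting error limits.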
